A study of Mus musculus with 3 samples.

Results

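Transcripts of 45 genes of DNA double-strand break and excision repair were measured by droplet single-cell RNA sequencing in mouse bone marrow. The 45 genes were taken by symbol from the 56980 genes listed in each library, and all 45 were found. No rule on measured values set this choice, but the 45 genes were chosen with earlier results of these data known. They comprise 9 genes of double-strand break sensing and signalling, 7 of non-homologous end joining, 7 of homologous recombination, 4 of the Fanconi anemia pathway, 7 of base excision and single-strand break repair, 8 of nucleotide excision repair, 2 of mismatch repair and 1 of nucleotide supply. The 3 libraries came from C57BL/6 mice: Control (no irradiation), IR (6 Gy of cobalt-60 gamma rays, with the soybean oil and DMSO solvent alone) and IR+CBD (the same dose with 4 intraperitoneal injections of cannabidiol at 50 mg/kg, given before and after irradiation). All were taken at 14 days post-irradiation (14 DPI). The label of the IR+CBD sample names only the CBD treatment; its irradiation is given by the study's design. The age of these mice is not given in the sources used here. In every library, Lin-Kit+, Lin-Kit- and Lin+ cells of 3 mice were sorted and mixed 5 to 4 to 1, so the mix of cells is partly set by the sort.

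Each condition is 1 library of pooled mice. Its cells do not count as replicates, so no test between conditions exists here, and a difference between libraries cannot be told apart from one between mice, sorts or library preparations. Levels are UMIs (counted RNA molecules) of a gene per 1000000 UMIs (CPM) summed over the cells named, and every interval is an exact 95% interval that covers counting error only. Cells with at least 200 genes and at most 5% mitochondrial UMIs were kept: 10674, 10345 and 10273 in Control, IR and IR+CBD, with median depths of 12479.5, 14211 and 12502 UMIs. Between 26 and 34 kept barcodes were shared by each pair of libraries.

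A double-strand break is bound by the Mre11a-Rad50-Nbn complex, which activates the kinase Atm, while Atr answers to exposed single-stranded DNA. Mdc1, the ubiquitin ligases Rnf8 and Rnf168, and Trp53bp1 then mark the chromatin beside it. End joining seals the ends without a template: Xrcc5 and Xrcc6 form the Ku ring on the end, Prkdc is the kinase that docks on it, Dclre1c (Artemis) opens and trims ends, and Lig4 with Xrcc4 and Nhej1 joins them. The same machinery joins antigen receptor gene segments in developing lymphocytes. Homologous recombination copies the sister chromatid, so it is used in S and G2 phase, and the Fanconi pathway, in which Fancl monoubiquitinates the Fancd2-Fanci pair, clears crosslinks at replication forks. Base excision replaces damaged bases, and nucleotide excision removes bulky lesions recognised by Xpc or by the Ddb1-Ddb2 complex. Blood-forming marrow is known for its sensitivity to radiation, and inherited Fanconi defects lead to marrow failure.

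Promoter sequences are shown for the 3 members that carry an E2F-type word and for Xrcc5, because genes of DNA replication and recombination often carry E2F sites near their start. RefSeq promoter sequences (build GRCm38.p6, matched by symbol) were found for 36 of the 45 members, without Rad50, Nbn, Prkdc, Xrcc2, Fancd2, Polb, Xpc, Ddb2 and Rrm2b. The 250 bases before the start were searched on both strands for the E2F-type words TTTCCCGC, TTTGGCGC and TTTCGCGC, and no matches among the members overlapped. A word was found for 3 of the 36 members, Mdc1, Xrcc6 and Brca2, or 8.33%, and for 1.78% of the 27025 genes in the table (1.53% of its 32851 promoters). All 3 matches are to TTTCCCGC, on the printed strand in Mdc1 and on the other strand in Xrcc6 and Brca2. Capitals mark the match, and a sequence without capitals has none in this window. The first stretch lies at chr5:150522371-150522620, the second at chr15:82016119-82016368 and the third at chr17:35841248-35841497, all on the plus strand. The last, also on the plus strand, at chr1:72307171-72307420, belongs to Xrcc5. Its IR over Control ratio changed most of the 45 when the libraries were weighted to the same mix of cells.
Brca2: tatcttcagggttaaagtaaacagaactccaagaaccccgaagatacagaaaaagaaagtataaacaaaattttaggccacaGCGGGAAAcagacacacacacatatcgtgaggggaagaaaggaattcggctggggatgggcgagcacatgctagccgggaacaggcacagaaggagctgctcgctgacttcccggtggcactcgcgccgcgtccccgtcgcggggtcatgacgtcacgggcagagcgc
Xrcc6: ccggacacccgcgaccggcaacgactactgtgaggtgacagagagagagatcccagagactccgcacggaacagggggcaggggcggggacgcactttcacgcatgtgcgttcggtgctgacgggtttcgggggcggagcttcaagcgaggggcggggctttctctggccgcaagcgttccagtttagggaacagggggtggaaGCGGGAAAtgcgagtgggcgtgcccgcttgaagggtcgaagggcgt
Mdc1: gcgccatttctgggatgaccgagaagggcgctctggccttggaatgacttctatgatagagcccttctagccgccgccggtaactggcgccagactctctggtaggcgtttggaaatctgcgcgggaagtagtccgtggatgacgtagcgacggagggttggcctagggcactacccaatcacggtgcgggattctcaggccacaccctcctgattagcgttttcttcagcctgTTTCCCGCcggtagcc
Xrcc5: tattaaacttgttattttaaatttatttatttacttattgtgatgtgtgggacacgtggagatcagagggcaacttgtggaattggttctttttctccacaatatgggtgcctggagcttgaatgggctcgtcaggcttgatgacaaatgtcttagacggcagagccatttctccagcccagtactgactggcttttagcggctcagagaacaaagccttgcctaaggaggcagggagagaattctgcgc

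Counted from the start of transcription, the word lies at position -16 in Mdc1, -46 in Xrcc6 and -168 in Brca2. A match is not shown to be a bound site, and no match says only that these letters are absent from this window.

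Cells were grouped by raw UMIs of marker genes, and a cell may pass several of the 6 gates. The Mpo gate (at least 5 UMIs, granulocyte-monocyte progenitors) held 3227, 2916 and 3294 cells of Control, IR and IR+CBD. The Klf1 gate (at least 2, erythroid progenitors) held 586, 1446 and 1181 cells, or 5.49%, 14.0% and 11.5% of the kept cells. The Cd79a gate (at least 2, B-lineage cells) held 3524, 4072 and 3456 cells, and the Retnlg gate (at least 5, maturing neutrophils) held 1004, 1076 and 1215. The Siglech gate (at least 3, plasmacytoid dendritic cells) held 273, 46 and 79 cells, so most members had under 100 UMIs there. Cd34 with Adgrl4 (at least 1 UMI of each) held 3116, 1952 and 1970 cells.

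Each gate was checked against 5 defining markers that do not set it, and the sum of each list was highest in its own gate. Among single markers the exception was Spib of the Siglech list. It stood at 129, 154 and 190 CPM in the Cd79a gate of Control, IR and IR+CBD, against 104, 122 and 143 in the Siglech gate. The erythroid list (Gata1, Car1, Ermap, Epor and Car2) summed to 6495, 5126 and 5826 CPM in the Klf1 gate. It reached at most 915 CPM in any other gate. The B-lineage list summed to 7154, 7348 and 7425 CPM in the Cd79a gate and at most 672 CPM elsewhere. The Cd34 and Adgrl4 gate overlapped the Mpo gate. Of its cells, 69.0%, 87.4% and 83.4% in Control, IR and IR+CBD also passed the Mpo gate. Elane, a granule protease of granulocyte progenitors, stood there at 1905, 2324 and 2537 CPM. Hlf, a stem cell transcription factor, stood at 49.3, 21.5 and 27.7 CPM, lower in both irradiated libraries. It is called the Cd34/Adgrl4 gate, with no cell type name. Cells in more than 1 gate made up 19.9% to 23.1% of the kept cells, and predicted doublets were kept in the values given unless stated.

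In all cells together, most repair genes lay close to their Control level at 14 DPI. All 45 members passed the minimum of 200 UMIs in each comparison, 28 were above and 17 below Control in IR, and the median log2 ratio of the 45 was 0.03 against -0.05 for all 15828 genes over the minimum. Xrcc5 and Palb2 were at least 25% higher in IR, 2 of 45 members, where 8.56% of all genes were. Trp53bp1 and Xpc were at least 20% lower, 2 of 45, which is the same fold in the other direction, where 17.2% of all genes were. Both shares are below the background, so the members did not stand out by fold. Of all genes, 42.0% were above Control in IR, a lower share than among the members.

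**Figure D1:**
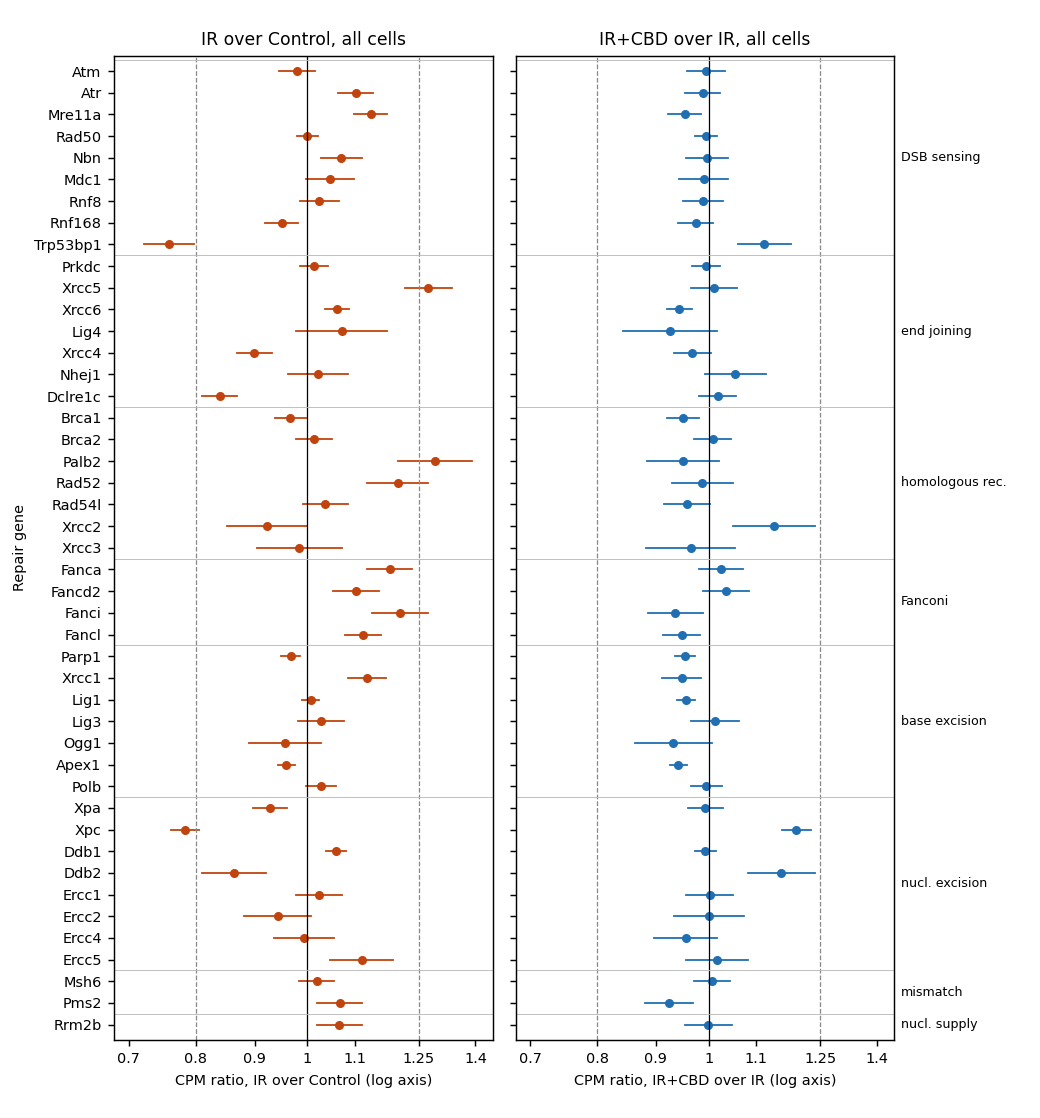
CPM ratio of each of the 45 repair genes in all cells (horizontal log axis), IR over Control on the left and IR+CBD over IR on the right. Points are ratios, bars are exact 95% counting intervals, dashed lines mark 25% higher and 20% lower, and genes are grouped by pathway; Trp53bp1, Xpc, Xrcc5 and Palb2 lie past a dashed line on the left, and none does on the right.

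In break sensing, the values clustered near Control. Rad50 stood at 86.03, 86.01 and 85.60 CPM in Control, IR and IR+CBD, and Atm at 29.7, 29.1 and 29.0. The highest ratio of the 9 was that of the nuclease Mre11a, with 34.1, 38.7 and 36.9 CPM and an IR over Control ratio of 1.135 (1.099 to 1.173). Trp53bp1, which shields ends from resection and thereby favours end joining, was the lowest. It stood at 18.6, 14.1 and 15.8 CPM in Control, IR and IR+CBD, a ratio of 0.76 (0.72 to 0.80) in IR over Control and 1.12 (1.06 to 1.18) in IR+CBD over IR. Control was thus the highest of the 3 libraries and IR the lowest.

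In end joining, Xrcc5 (Ku80) stood at 15.8, 20.1 and 20.4 CPM in Control, IR and IR+CBD, a ratio of 1.27 (1.22 to 1.34) for IR and 1.01 (0.97 to 1.06) for IR+CBD over IR. Its partner Xrcc6 (Ku70) stood at 62.9, 66.8 and 63.0 CPM, a ratio of 1.06 (1.04 to 1.09). Dclre1c was the lowest of the pathway, at 36.2, 30.4 and 30.9 CPM and a ratio of 0.84 (0.81 to 0.87). Prkdc, at 49.9, 50.6 and 50.3 CPM, and Nhej1, at 10.78, 11.01 and 11.62, were within counting error of Control in IR. The pair of Ku genes therefore did not keep 1 ratio across the libraries.

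In homologous recombination, Palb2, which links Brca1 to Brca2, stood at 6.51, 8.41 and 7.99 CPM, a ratio of 1.29 (1.20 to 1.39). The single-strand annealing protein Rad52 came next, at 9.54, 11.4 and 11.3 CPM and 1.20 (1.13 to 1.27). Brca2 at 29.63, 30.02 and 30.26 CPM differed by less than counting error. Xrcc2 was the lowest of the 7 in IR, at 6.48, 5.97 and 6.81 CPM, and its ratio was 0.92 (0.85 to 0.999). The 4 Fanconi members were all above Control in IR, with ratios from 1.102 for Fancd2 to 1.204 for Fanci and a median log2 ratio of 0.20. Fanca stood at 17.9, 21.1 and 21.6 CPM and Fanci at 11.7, 14.1 and 13.2. None of the 4 was 25% higher.

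Among the excision genes, Xpc, the lesion sensor of global nucleotide excision, had 55.3, 43.3 and 51.6 CPM in Control, IR and IR+CBD. Its ratio was 0.78 (0.76 to 0.81) in IR over Control and 1.19 (1.16 to 1.23) in IR+CBD over IR, the largest of any member in the second comparison. Ddb2, the damage-binding partner of Ddb1, followed the same order with 10.1, 8.70 and 10.1 CPM, while Ddb1 itself stood at 93.4, 99.0 and 98.3. The endonuclease Ercc5 had the highest ratio of the pathway, 1.11 (1.05 to 1.19), and the Ercc1-Ercc4 pair lay at 1.02 and 0.99. In base excision, the ratios ran from 0.96 for the glycosylase Ogg1 to 1.13 for the scaffold Xrcc1. Apex1, Lig1 and Parp1 were within 5% of Control, at 0.96, 1.01 and 0.97. Msh6 and Pms2 of mismatch repair had ratios of 1.02 and 1.07, and Rrm2b, the p53-induced ribonucleotide reductase subunit, 1.07 (1.02 to 1.12).

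In all cells, the IR+CBD and IR libraries differed little in these genes. In IR+CBD over IR, 0 of 45 members were 25% higher, where 4.61% of all genes were, and 0 of 45 were 20% lower, where 4.53% were. Of the members, 15 were above and 30 below IR. Of all 15520 genes over the minimum, 7766 were above IR, a larger share than among the members. The ratios of the members ran from 0.92 for Pms2 to 1.19 for Xpc. The next highest were Ddb2 at 1.16 (1.08 to 1.24), Xrcc2 at 1.14 (1.05 to 1.24) and Trp53bp1 at 1.12, each of which had been below Control in IR. All 7 base excision ratios lay between 0.93 and 1.01. Against Control, only Xrcc5 was past the fold in IR+CBD, 1.29-fold higher, and no member was past it lower, where 6.66% of all genes were higher and 14.3% lower. The comparisons share libraries, so the direction of one is tied to that of the other.

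The ratios of the 4 genes past the fold in IR were recomputed with 1 mix of cells. When the 6 gates and the remaining cells, each cell counted once, were given the Control share of UMIs in every library, 0 of 45 members were past the fold. The Xrcc5 ratio was then 0.81 instead of 1.27, on the other side of 1, and that of Xpc was 0.94 instead of 0.78. Trp53bp1 had 0.84 and Palb2 1.22, each on its side of 1. Dividing the same strata by cycling state gave the same 4 values to the second decimal, and again 0 members past the fold. With these weights the median log2 ratio of the 4 Fanconi genes was 0.08 instead of 0.20, with 3 of 4 above 1.

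Xrcc5 differed between gates more than between libraries. In the Klf1 gate it was 46.5, 46.4 and 47.2 CPM in Control, IR and IR+CBD, so no library differed beyond counting error. In the Mpo gate it was 7.59, 5.83 and 7.80 CPM, a ratio of 0.77 (0.69 to 0.86) in IR and 1.339 (1.194 to 1.502) in IR+CBD over IR. In the Cd34/Adgrl4 gate it was 12.0, 7.14 and 9.69 CPM, with ratios of 0.60 (0.53 to 0.66) and 1.36 (1.20 to 1.54). The Klf1 gate held a larger share of the cells in both irradiated libraries, and Xrcc5 was at its highest there in each library. The part of this share in the ratio over all cells was not tested beyond the weighting given above. Without cells that also pass another gate, the Cd34/Adgrl4 ratio was 0.93, on 139 UMIs in IR.

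In the Retnlg gate, Xrcc5 went the other way, with 6.46, 9.30 and 7.12 CPM and an IR over Control ratio of 1.44 (1.09 to 1.91). The 5 erythroid markers moved with it in that gate, with sums of 252, 720 and 604 CPM, and 5 of 5 were detected in each library. In neutrophil-gated cells that passed no other gate, Xrcc5 had only 18, 14 and 11 UMIs. The part of erythroid RNA in the Retnlg value was not tested.

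**Figure D2:**
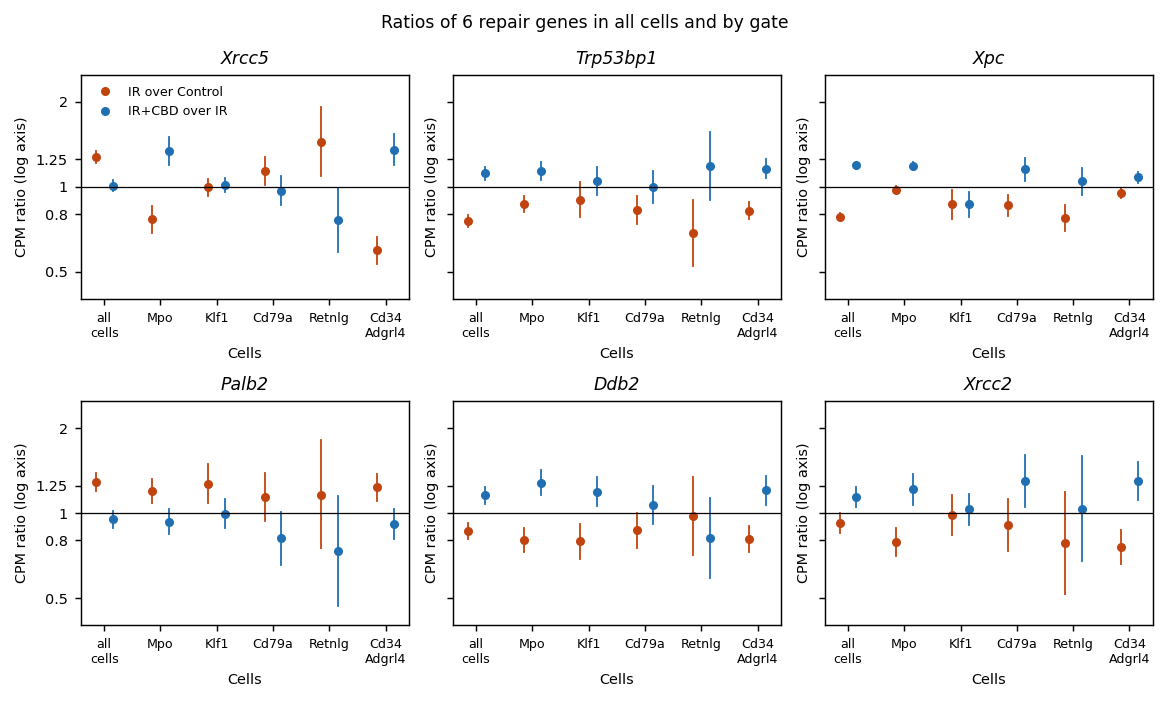
CPM ratios (vertical log axis) of Xrcc5, Trp53bp1, Xpc, Palb2, Ddb2 and Xrcc2 in all cells and in 5 gates, IR over Control in red and IR+CBD over IR in blue, with exact 95% counting intervals. In IR over Control, Xrcc5 is above 1 in all cells (1.27) but below 1 in the Mpo (0.77) and Cd34/Adgrl4 (0.60) gates. Trp53bp1 in the same comparison is below 1 in all cells and in each of the 5 gates shown.

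Other members held 1 direction across the gates where they had at least 100 UMIs. Trp53bp1 in IR was below Control in the 5 gates other than Siglech, where it was under that minimum. It had 18.0 and 15.6 CPM in the Mpo gate (0.87), 19.4 and 16.0 in the Cd79a gate (0.83) and 10.0 and 6.88 in the Retnlg gate (0.69, 0.52 to 0.89). In the Klf1 gate, at 11.5 and 10.3 CPM, the interval of its ratio held 1. Palb2 was above Control in 5 gates, at 7.38, 8.85 and 8.25 CPM in the Mpo gate (1.20) and 8.62, 10.96 and 10.9 in the Klf1 gate (1.27). In the Siglech gate it was under the minimum of 100 UMIs. Xpc lay below Control in each gate, with 69.3 and 67.6 CPM in the Mpo gate, a ratio whose interval held 1. In the Cd79a gate it had 32.1 and 27.6 CPM (0.86), and in the Retnlg gate 57.0 and 44.1 (0.77). In IR+CBD it stood at 80.2 CPM in the Mpo gate, 1.19-fold (1.15 to 1.23) over IR.

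Ddb2 was lowest in IR in the Mpo, Klf1 and Cd34/Adgrl4 gates, and Xrcc2 in the first and last of these beyond counting error. Ddb2 stood at 9.26, 7.46 and 9.55 CPM in the Mpo gate, 12.2, 9.68 and 11.6 in the Klf1 gate and 10.1, 8.16 and 9.83 in the Cd34/Adgrl4 gate. Its IR ratios there were 0.81, 0.79 and 0.81, and its IR+CBD over IR ratios 1.28, 1.19 and 1.21, with all 6 intervals clear of 1. The Mpo and Cd34/Adgrl4 gates share most of the cells of the latter (69.0%, 87.4% and 83.4% in Control, IR and IR+CBD). Their values are therefore not separate observations. Xrcc2 stood at 6.48, 5.13 and 6.22 CPM in the Mpo gate and 6.47, 4.91 and 6.38 in the Cd34/Adgrl4 gate. In the Klf1 gate Xrcc2 had 8.62, 8.48 and 8.75 CPM, with intervals of both ratios that held 1. The recombination gene Brca1 was also lower in IR in the Mpo gate, at 44.2 and 36.1 CPM (0.82, 0.78 to 0.85), and stood at 36.0 in IR+CBD.

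Few members passed 1.5-fold within a gate. In IR over Control, 0 members did so in the Mpo gate (background 7.22% of genes in either direction), 0 in the Klf1 gate (7.11%) and 0 in the Cd79a gate (8.29%). In the Cd34/Adgrl4 gate it was 1 member, Xrcc5 (background 9.83%). There, 0 of the 42 members over the minimum of 100 UMIs were past the fold without cells of more than 1 gate. In the Retnlg gate, 2 of the 41 over the minimum of 100 UMIs were past it (background 6.91%): Atr, at 8.81, 13.7 and 14.4 CPM and 1.55-fold higher (1.23 to 1.97), and Fancl, at 10.5, 17.3 and 11.2 CPM with 1.65 (1.33 to 2.04). Both calls ended without predicted doublets, as UMIs fell under the minimum: Atr then had 26 and 39 UMIs and a ratio of 1.345, and Fancl 28 and 50 and a ratio of 1.602. Without cells of other gates the ratios were 1.358 for Atr and 1.210 for Fancl, the latter on 29 and 41 UMIs. In the Siglech gate, 3 of the 17 over the minimum were past it (background 12.8%): Parp1 at 0.59 (0.41 to 0.83), Ddb1 at 0.60 (0.37 to 0.94) and Brca1 at 0.62 (0.35 to 1.05), whose interval held 1.

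In IR+CBD over IR the counts were again 0 in the Mpo (3.22%), Klf1 (3.35%), Cd79a (3.81%) and Cd34/Adgrl4 (3.34%) gates. Fancl was the 1 member past the fold in the Retnlg gate (background 3.28%), at 0.65 (0.53 to 0.79). In the Siglech gate, 2 of the 4 over the minimum were past it (background 9.98%): Dclre1c, 1.56-fold higher (106 and 164 CPM), and Parp1, 1.62-fold higher (61.7 and 100.1 CPM). With 46 and 79 cells in this gate, these values rest on few cells.

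Differences between cell types were far larger than those between libraries. In the Control library, 24 of 45 members were highest in the Klf1 gate, and 34 were lowest in the Retnlg gate, counts of 21 and 32 in IR and 23 and 33 in IR+CBD. The same counts over all genes were not made, so no trait particular to repair genes is read from them. The 5 neutrophil markers alone took 246291 CPM of the Retnlg gate in Control, so that other genes share the rest, and CPM there is lowered for any gene by that much. Leaving out cells of more than 1 gate gave 21 highest in the Klf1 gate and 37 lowest in the Retnlg gate in Control.

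**Figure D3:**
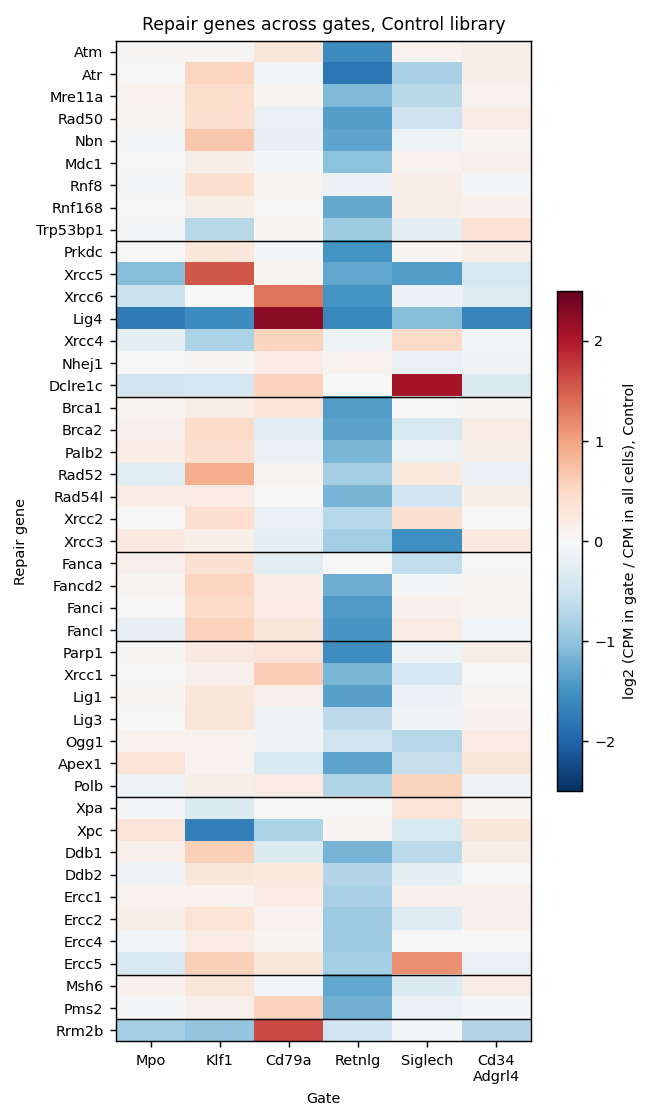
Level of each repair gene in each gate of the Control library, as log2 of the CPM in the gate over the CPM in all cells (color), with genes in rows by pathway and gates in columns. The Retnlg column is mostly blue, and Lig4, Xrcc6 and Rrm2b stand out in the Cd79a column, Dclre1c in the Siglech column and Xrcc5 in the Klf1 column.

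Lig4, Xrcc5 and Xrcc6 of end joining had the widest ranges of the members in Control. Lig4, the ligase of the pathway, stood in the Cd79a gate at 21.8, 21.0 and 22.4 CPM in Control, IR and IR+CBD, and at 1.37 to 2.16 CPM in the Mpo, Klf1, Retnlg and Cd34/Adgrl4 gates of all 3 libraries. Xrcc6 stood at 159, 168 and 176 CPM in the Cd79a gate against 22.6 to 63.2 in every other gate. Xrcc4, the ligase partner, was also highest there in each library, at 50.9, 49.8 and 51.4 CPM, and lowest in the Klf1 gate at 19.9, 19.9 and 18.2. In these 3 genes the Cd79a gate was above the Mpo, Klf1, Retnlg and Cd34/Adgrl4 gates in all 3 libraries. How many of all genes separate in this way was not counted, so no trait particular to these 3 is read from it.

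Xrcc5 did not follow its Ku partner. In the Control library it was at 46.5 CPM in the Klf1 gate and 16.6 in the Cd79a gate, while Xrcc6 stood at 62.4 and 159. Dclre1c was highest in the Siglech gate, at 152, 106 and 164 CPM in Control, IR and IR+CBD, followed by the Cd79a gate at 53.7, 50.1 and 53.9. It was at 22.5 to 40.5 CPM in all other gates. Nhej1 was the flattest of the pathway, at 9.43 to 12.5 CPM over the 6 gates of Control. With cells of more than 1 gate left out, Lig4 was at 31.8, 31.2 and 32.4 CPM in the Cd79a gate, and Dclre1c at 191, 137 and 180 in the Siglech gate.

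**Figure D4:**
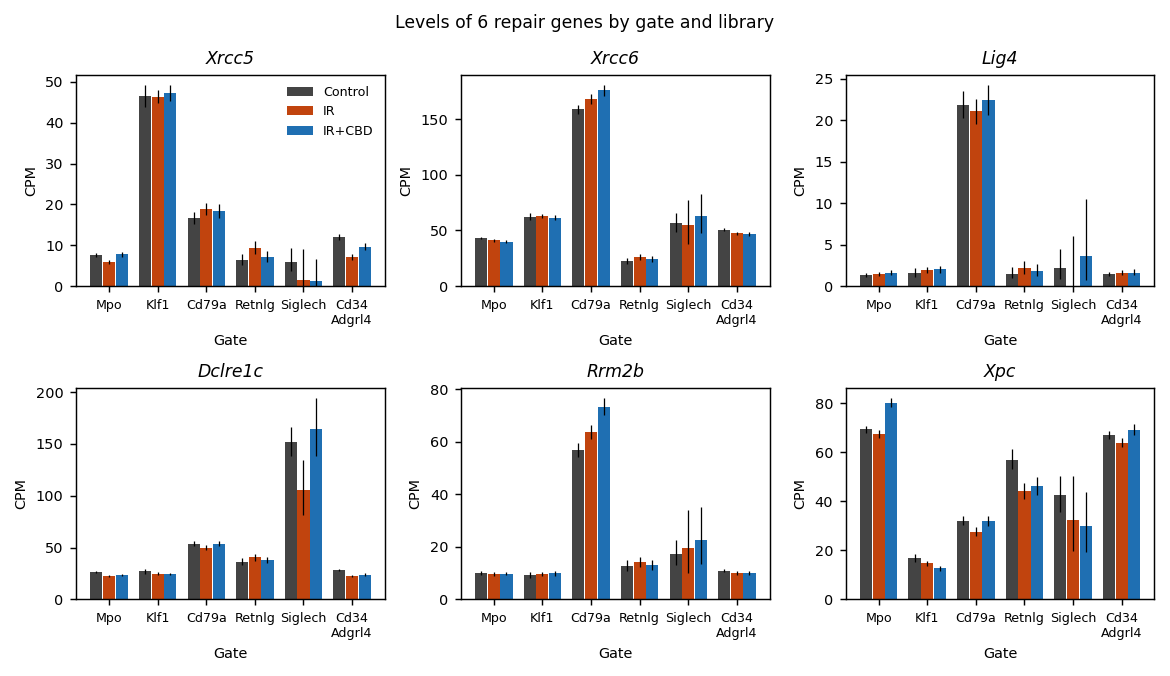
CPM (vertical axes, from 0) of Xrcc5, Xrcc6, Lig4, Dclre1c, Rrm2b and Xpc in the 6 gates, with bars for Control, IR and IR+CBD and exact 95% Poisson intervals. Each gene keeps its highest gate in all 3 libraries: Klf1 for Xrcc5, Cd79a for Xrcc6, Lig4 and Rrm2b, Siglech for Dclre1c and Mpo for Xpc.

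Outside end joining, Rrm2b was also a gene of the Cd79a gate, at 56.9, 63.8 and 73.3 CPM. Elsewhere it was at 9.15 to 22.6 CPM. Its ratio in the Cd79a gate was 1.12 (1.05 to 1.19) in IR over Control and 1.15 (1.08 to 1.22) in IR+CBD over IR. Xpc ran from 69.3, 67.6 and 80.2 CPM in the Mpo gate to 17.0, 14.7 and 12.8 in the Klf1 gate, the widest range in nucleotide excision, and Xpa the narrowest, from 44.6 to 28.2 CPM in Control. In break sensing, the kinase Atr had the widest range in Control, from 44.5 CPM in the Klf1 gate to 8.81 in the Retnlg gate, and Rnf8 the narrowest, from 34.0 to 23.1 in the same gates. In homologous recombination in Control, Brca2, the widest, ran from 41.2 to 11.8 CPM between them, and Xrcc2, the narrowest, from 8.62 to 3.95. All 4 Fanconi genes were highest in the Klf1 gate of every library, with Fancl at 43.0, 48.0 and 46.5 CPM. Fanca had the narrowest range of the 4, from 23.3 CPM in the Klf1 gate to 11.6 in the Siglech gate of Control. In base excision in Control, the break sensor Parp1 was widest, from 141 CPM in the Cd79a gate to 38.2 in the Retnlg gate, and Ogg1 narrowest, from 8.93 in the Cd34/Adgrl4 gate to 4.71 in the Siglech gate. The mismatch genes differed in their highest gate, with Pms2 at 27.5 CPM in the Cd79a gate and Msh6 at 37.9 in the Klf1 gate, while both were lowest in the Retnlg gate, at 7.97 and 12.6.

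Cells were then split by cycling state, with at least 2 Top2a UMIs as cycling and no Top2a or Mki67 UMI as non-cycling. Recombination and Fanconi genes stood higher in cycling cells, and the end joining median lay below 1. Within end joining, Xrcc5 had ratios of 1.02, 2.19 and 2.16 in Control, IR and IR+CBD, and Prkdc 1.19, 1.61 and 1.60. Nhej1 lay near 1, at 1.02, 0.918 and 0.991. The median ratio of cycling over non-cycling cells was 3.48, 3.37 and 4.36 in Control, IR and IR+CBD for homologous recombination, and 4.14, 3.85 and 4.02 for the Fanconi genes. It was 0.64, 0.58 and 0.62 for end joining, 1.54, 1.58 and 1.63 for base excision, and 1.24, 1.39 and 1.20 for nucleotide excision. All genes had a median of 1.00, 1.11 and 1.12. Of the 45 members, 14 were at least 2-fold higher in Control (background 12.8%), 18 in IR (18.4%) and 19 in IR+CBD (17.3%). Those 2-fold lower were 3, 4 and 3 (backgrounds 14.2%, 15.4% and 14.2%).

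**Figure D5:**
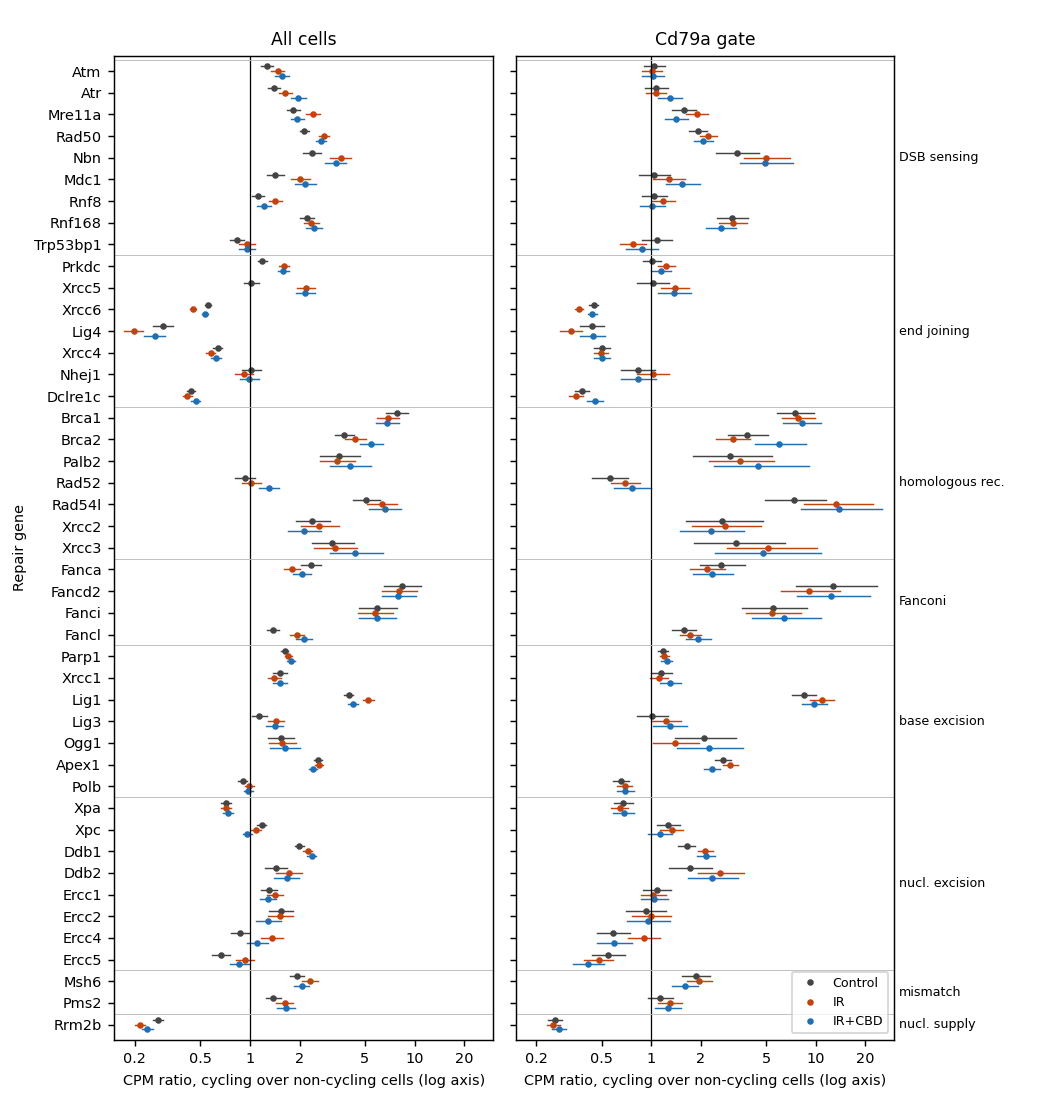
CPM ratio of cycling over non-cycling cells (log axis) for each repair gene, in all cells and in the Cd79a gate, with points for the 3 libraries and exact 95% counting intervals. Brca1, Rad54l, Fancd2, Fanci and Lig1 lie above 1 in all cells of every library, and Rrm2b, Lig4, Dclre1c, Xrcc6 and Xrcc4 lie below 1.

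Several genes of replication-coupled repair had high ratios in all 3 libraries. Fancd2, the ubiquitinated hub of the Fanconi pathway, had ratios of 8.38, 8.06 and 7.99, Brca1 7.80, 6.86 and 6.80, Fanci 5.93, 5.77 and 5.90, and Rad54l, a DNA translocase of recombination, 5.06, 6.32 and 6.59. Lig1, which also joins Okazaki fragments, had 3.98, 5.24 and 4.25. Rad52 was the exception in recombination, at 0.93, 1.02 and 1.30. At the other end stood Rrm2b (0.28, 0.21 and 0.24), Lig4 (0.30, 0.20 and 0.26), Dclre1c (0.44, 0.42 and 0.47) and Xrcc6 (0.55, 0.45 and 0.53). Of the 3 genes with an E2F-type word in the searched window, Brca2 had ratios of 3.75, 4.36 and 5.47, Mdc1 1.42, 2.03 and 2.17, and Xrcc6 was below 1 in this split.

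Depth and cell type moved with this split. Cycling cells had a median of 27826.5, 30401 and 25454 UMIs in Control, IR and IR+CBD, and non-cycling cells 4173, 3785 and 3558, and Cd79a-gated cells were mostly non-cycling, 53.8%, 61.4% and 61.8% in Control, IR and IR+CBD. When every cell was thinned to 2000 UMIs before the split, leaving out 401, 296 and 452 shallower cells, the end joining median was 1.17, 1.13 and 1.19, above 1. The medians were then 1.52, 1.67 and 1.68 for homologous recombination and 1.88, 1.81 and 1.75 for the Fanconi genes, also above 1. Single genes with low ratios differed as well. Thinned, Lig4 ran from 1.06 to 1.64 over the libraries, and the values were for Xrcc6 1.24, 1.02 and 1.18, Rrm2b 1.02, 0.873 and 0.980, and Dclre1c 0.966, 0.941 and 0.982. The 3 genes with an E2F-type word were then all above 1 in each library, with Brca2 at 1.78, 1.67 and 1.84 and Mdc1 at 1.61, 1.70 and 1.69. With the 7 strata weighted alike in both classes, the end joining medians were 0.73, 0.98 and 1.03, and the homologous recombination medians 2.39, 2.29 and 2.72. The end joining median below 1 in all cells thus did not hold when the split was made at equal depth, whereas the direction for recombination and Fanconi genes did. Thinning also changed which cells fell in each class. Control had 1259 cycling and 6471 non-cycling cells after it, against 4884 and 4043 before. In the Cd79a gate the thinned end joining medians were 0.942, 0.838 and 1.03 in Control, IR and IR+CBD.

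Inside the Cd79a gate, genes on either side of 1 were also found in the unthinned cells. Lig1 had ratios of 8.47, 10.8 and 9.77, Fancd2 12.8, 9.09 and 12.4, Rad54l 7.34, 13.3 and 13.8, and Nbn, the adaptor of the break-sensing complex, 3.29, 4.96 and 4.91. The opposite held for Rrm2b (0.26, 0.25 and 0.28), Dclre1c (0.38, 0.35 and 0.46), Xrcc6 (0.45, 0.36 and 0.44), Lig4 (0.44, 0.33 and 0.44) and Xrcc4 (0.50 in each library). After thinning, Rrm2b stood at 0.63, 0.58 and 0.64 and Dclre1c at 0.68, 0.63 and 0.79, with every interval below 1. Xrcc4, at 0.88, 0.84 and 0.83, and Xrcc6, at 0.91, 0.68 and 0.81, also stayed below 1. Lig4 had 0.98, 0.70 and 1.03, with an interval clear of 1 in IR alone. Fancd2 was then at 3.67, 3.60 and 4.33 and Lig1 at 2.54, 2.99 and 2.93.

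Proliferation genes were set beside the members. Of a list of 26 S-phase genes, 22 were above Control in IR, with a median log2 ratio of 0.09, and all 26 were below IR in IR+CBD, with a median of -0.11, none past the fold. Their summed level was 2836, 2979 and 2758 CPM. The 26 G2/M genes had 17 above Control and 9 above IR. Of all 15520 genes over the minimum in IR+CBD over IR, 7766 were above IR. The median of the 45 members in this comparison was -0.01, with 5 of 7 recombination genes and 6 of 7 base excision genes below IR. The part of cycling in these ratios was not tested beyond the weighting given above.

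Other genes of the same pathways were counted in the same way for IR over Control, where 8.56% of all genes were past the fold higher and 17.2% lower. In end joining 2 of 13 were past the fold, both higher, namely Aplf at 9.72, 14.4 and 13.1 CPM (1.486, 1.402 to 1.575) and Polm at 8.28, 10.8 and 11.3 (1.30). In recombination it was 1 of 21, the helicase Wrn at 69.7, 93.3 and 90.8 CPM (1.34, 1.31 to 1.37). In the Fanconi pathway it was 2 of 13, Fance and Fancf (1.28 and 1.30), and in nucleotide excision 4 of 17, among them Gtf2h3 (1.38) and Rpa3 (1.29). In base excision 1 of the 14 over the minimum passed, Mutyh, lower at 0.79, and in mismatch repair 0 of 5. In IR+CBD over IR, 0 of these genes were past the fold. Of the genes named here, Aplf, Wrn, Gtf2h3 and Rpa3 had intervals wholly past the fold, and the others were named after their values were seen.

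Ddb2, Xpc and Rrm2b are known targets of p53, and 20 p53 targets outside repair were examined beside them. In IR over Control, 3 of the 20 were past the fold higher (8.56% of all genes) and 4 lower (17.2%). Cdkn1a, the p53-induced cell cycle inhibitor, stood at 75.7, 36.6 and 38.6 CPM in Control, IR and IR+CBD, a ratio of 0.48 (0.47 to 0.50), and Plk2 at 8.96, 4.13 and 5.07. Tnfrsf10b (0.53) and Btg2 (0.78) were the other lower ones, and Eda2r (1.79), Zmat3 (1.46) and Pmaip1 (1.29) were the higher ones. In IR+CBD over IR, Perp (1.39) and Tnfrsf10b (1.35) were past the fold higher (4.61% of all genes) and none lower. The 3 members had ratios in IR of 0.86, 0.78 and 1.07, inside the range of 0.46 to 1.79 of the 20. All of these targets were named after their values were seen.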

How the data were processed

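Single-cell RNA was measured in 3 pooled bone marrow libraries, 1 per condition. The authors deposited UMI counts per gene and cell barcode, as raw whole numbers. The submitters' processing notes name Cell Ranger 4.0 and GRCm39, and the deposited matrix headers give version 7.0.1. No column lacked a sample (0 left unmapped). Cells were kept as stated, and counts were summed per library and gate and divided by the sum of all UMIs in it. Intervals are exact Poisson for levels and exact conditional binomial for ratios. A gene was called past the fold at 25% higher or 20% lower with at least 200 UMIs in the 2 libraries together, or at 1.5-fold with at least 100 in a gate, with no test. Named were members past the fold, the highest and lowest ratio of each pathway, and the widest and narrowest range over gates. Doublets were kept. As an alternative, the 911, 856 and 844 cells with the highest Scrublet scores (scanpy 1.11.5) were left out as predicted doublets. Their number, 8.53%, 8.27% and 8.22% of the cells, was set by an assumed doublet rate and not by Scrublet. Analyses used Python 3.11.15, numpy 2.4.6, scipy 1.17.1 and matplotlib 3.10.9. Only the intervals and the fold rule were tested on simulated counts, which were drawn with counting error alone. The members and lists were chosen with earlier results of these data known. The precision is that of the UMI numbers, with 194839224, 202361682 and 173466089 UMIs in Control, IR and IR+CBD. Levels were not compared between genes. Results of some genes are not reported here.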

Additional observations from a re-analysis of the deposited data

Results flagged for a closer look

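The ratios of Xrcc5 and Mdc1 pointed in opposite directions in different gates, each with an interval clear of 1. For Xrcc5 in IR over Control, the ratio was 1.441 in the Retnlg gate, 0.7679 in the Mpo gate and 0.5962 in the Cd34/Adgrl4 gate. For Xrcc5 in IR+CBD over IR, it was 1.339 in the Mpo gate, 1.356 in the Cd34/Adgrl4 gate and 0.7655 in the Retnlg gate. For Mdc1 in IR+CBD over IR, it was 1.306 in the Cd79a gate (13.9 and 18.2 CPM) and 0.7148 in the Retnlg gate (9.10 and 6.50 CPM). The difference between gates was not tested, since each condition is 1 library. Without cells of more than 1 gate, Xrcc5 in the Retnlg gate rested on 18, 14 and 11 UMIs in Control, IR and IR+CBD. With the same cells left out, Xrcc5 in the Cd34/Adgrl4 gate was no longer past 1.5-fold in IR over Control.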

How the results depend on the processing

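No paired analysis was possible because each condition is 1 library. In all cells, the 4 members past the fold in IR over Control became 0 with the 7 strata at Control UMI shares, with those strata divided by Top2a, and at a fold of 1.5. The Xrcc5 ratio was 0.8117 and 0.8130 with the 2 weightings and 1.013 with each cell weighted equally. In IR+CBD over IR, 0 became 2 with each cell weighted equally (Xrcc2 and Xpc). In IR+CBD over Control, 1 became 2 with median-of-ratios size factors (Xrcc5 and Palb2) and 0 with both weightings and at a fold of 1.5. In gated cells, 6 in IR over Control became 10 with each gate divided by Top2a, and 3 in IR+CBD over IR became 1 without predicted doublets (Parp1 in the Retnlg gate) and 1 without cells of more than 1 gate (Xrcc5 in the Mpo gate). The members called differed between these settings. For cycling against non-cycling cells thinned to 2000 UMIs before the split, the end joining medians were 1.171, 1.129 and 1.192 in Control, IR and IR+CBD, those of homologous recombination 1.521, 1.674 and 1.677, and those of the Fanconi genes 1.884, 1.814 and 1.745. With the 7 strata weighted alike, nucleotide excision had 0.9294 in Control, break sensing 1.301 in IR and 1.231 in IR+CBD, end joining 0.9789 in IR and 1.029 in IR+CBD, and homologous recombination 2.722 in IR+CBD. In the Cd79a gate, thinning gave 1.026 for end joining in IR+CBD. The causes of these changes were not tested. Leaving out cells of more than 1 gate in levels and in single ratios, leaving out predicted doublets in levels, weighting strata alike by cycling state, and thinning in the Cd79a gate were added after seeing the data. For the counts and pathway medians, 99 recomputed values stayed within the limits set for no change, 21 moved and 5 reversed. The number of cells limits the Siglech gate most (273, 46 and 79), and members under 100 UMIs in a gate were not called.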
